A study of Homo sapiens with 3 samples.

Results

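RAB GTPases are small switch proteins that mark the membranes of the cell. Bound to GTP they recruit effectors such as tethers, motors and adaptors, bound to GDP they are lifted off the membrane by a dissociation inhibitor, and exchange factors and GTPase activators turn the switch. Each RAB serves certain steps of transport, and in colon epithelium they carry out secretion, uptake of receptors, and the recycling that keeps apical and basolateral membranes apart.

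The members described here were the genes whose symbol is RAB followed by digits and at most 1 letter and that had at least 1 row for a coding transcript (RefSeq NM accession) in the authors' deposited table. This gave 47 genes with 60 NM rows, out of 63 such genes in the RefSeq gene table and out of 11487 genes with NM rows in all. They comprised 16 secretory, 11 endocytic and 8 recycling RABs and 12 with other roles. The remaining 16 genes, RAB3A, RAB3D, RAB6C, RAB6D, RAB7B, RAB19, RAB25, RAB26, RAB27B, RAB33A, RAB34, RAB37, RAB38, RAB40A, RAB41 and RAB44, were not analysed here.

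The cells were SW480, an established human colon adenocarcinoma line. There was 1 shRBMS1 library, from cells transduced with a short hairpin RNA against RBMS1, and there were 2 shControl libraries, all from total RNA taken 48 hours after transduction and depleted of ribosomal RNA. RBMS1 is an RNA-binding protein that prefers A+U-rich sequence, and the comparison sets transcript levels in cells with less RBMS1 against those in control cells. The shRBMS1 arm was made with 1 hairpin sequence, and the labels do not name the hairpin of each shControl library.

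The only values used were log2 fold changes, shRBMS1 over shControl, 1 per RefSeq transcript, so there is no level per library and the depth is unknown. With 1 shRBMS1 library there is no replicate check, and no test is given for any value. Each gene was given the median over its NM rows. In such bulk RNA, fewer cells carrying a transcript and less of it per cell cannot be told apart. RBMS1 itself was at −1.49, or 35.6% of control, by the authors' deposited table, and the direction of the ratio was set from it. Of 12 colon epithelial markers 9 had NM rows in the authors' deposited table, and of 12 markers of leukocytes, endothelium and fibroblasts only CD68 had one, at −0.54. The epithelial markers had a median of −0.48. Lowest were VIL1 at −2.33, ELF3 at −1.20 and KRT18 at −1.09, and highest KRT19 at −0.33 and KRT8 at 0.10, in the authors' deposited table. KRT18 rests on rows at −2.17 and −0.015, and KRT8 on rows between −0.0047 and 1.82, in the authors' deposited table. The part of these markers in the RAB values was not tested.

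Attachment to membranes depends on lipid groups added to cysteines at the end of the RAB protein, which the end of the coding sequence encodes. Below are the final 30 coding bases, stop codon included, with cysteine codons among the last 5 sense codons in capitals, from GENCODE 29 transcripts (GRCh38) linked to the RefSeq rows. They are shown for the members beyond 1 on the log2 scale, their relatives of the same family number, and RAB28, whose rows differ at this end.
RAB30 (chromosome 11): agctatttgactTGTTGTaatttcaactaa
RAB3B (chromosome 1): ccgctgctgcagcagaacTGCtcaTGCtag
RAB3C (chromosome 5): cctccaccgcagcccaacTGTgccTGCtag
RAB5A (chromosome 3): ccaaccaggaatcagTGTTGTagtaactaa
RAB5B (chromosome 12): cagaacaagagccagTGTTGTagcaactga
RAB5C (chromosome 17): gccagccggagccagTGCTGCagcaactga
RAB11A (chromosome 15): ccaaaggtgcagTGCTGTcagaacatctaa
RAB11B (chromosome 19): aacaagctgcagTGCTGCcagaacctgtga
RAB39A (chromosome 11): gtaaagcccaggaaagaaTGCttcTGCtga
RAB39B (chromosome X): gtcaaatcagagaggagaTGTttgTGCtag
RAB28 NM_001017979 (chromosome 4): cctagaagctctatgTGTgcagttcagtga
RAB28 NM_001159601 (chromosome 4): attttcatttcatcaactaatagagaataa
RAB28 NM_004249 (chromosome 4): actcagagtagaatcTGTtcagtacagtag

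All 46 members with a linked coding sequence had at least 1 cysteine codon in this window in at least 1 transcript, and 38 had 2 or more. In 14 members the last 2 codons were both cysteine, in another 14 the last and the third from last, and in 8 only the fourth from last. RAB43 had no complete coding sequence among the linked transcripts.

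As a family the RAB genes lay slightly above the centre of all genes. Their median was 0.12 with quartiles of −0.13 and 0.30, against a median of 0.0034 with quartiles of −0.26 and 0.22 over all 11487 genes of the authors' deposited table. Above 0 were 33 of the 47 RAB genes (70.2%), where 50.4% of all genes were. Most members differed little between the arms: 37 of 47 (78.7%) lay within 0.5 of 0, next to 77.4% of all genes. At or beyond 1 were 5 members (10.6%), of which 4 were higher and 1 lower, while over all genes 7.68% were beyond 1, 3.62% higher and 4.06% lower. The share within 0.5 is near the background of the table, and the share higher by at least 1, at 8.51%, rests on 4 genes without a replicate.

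**Figure D1:**
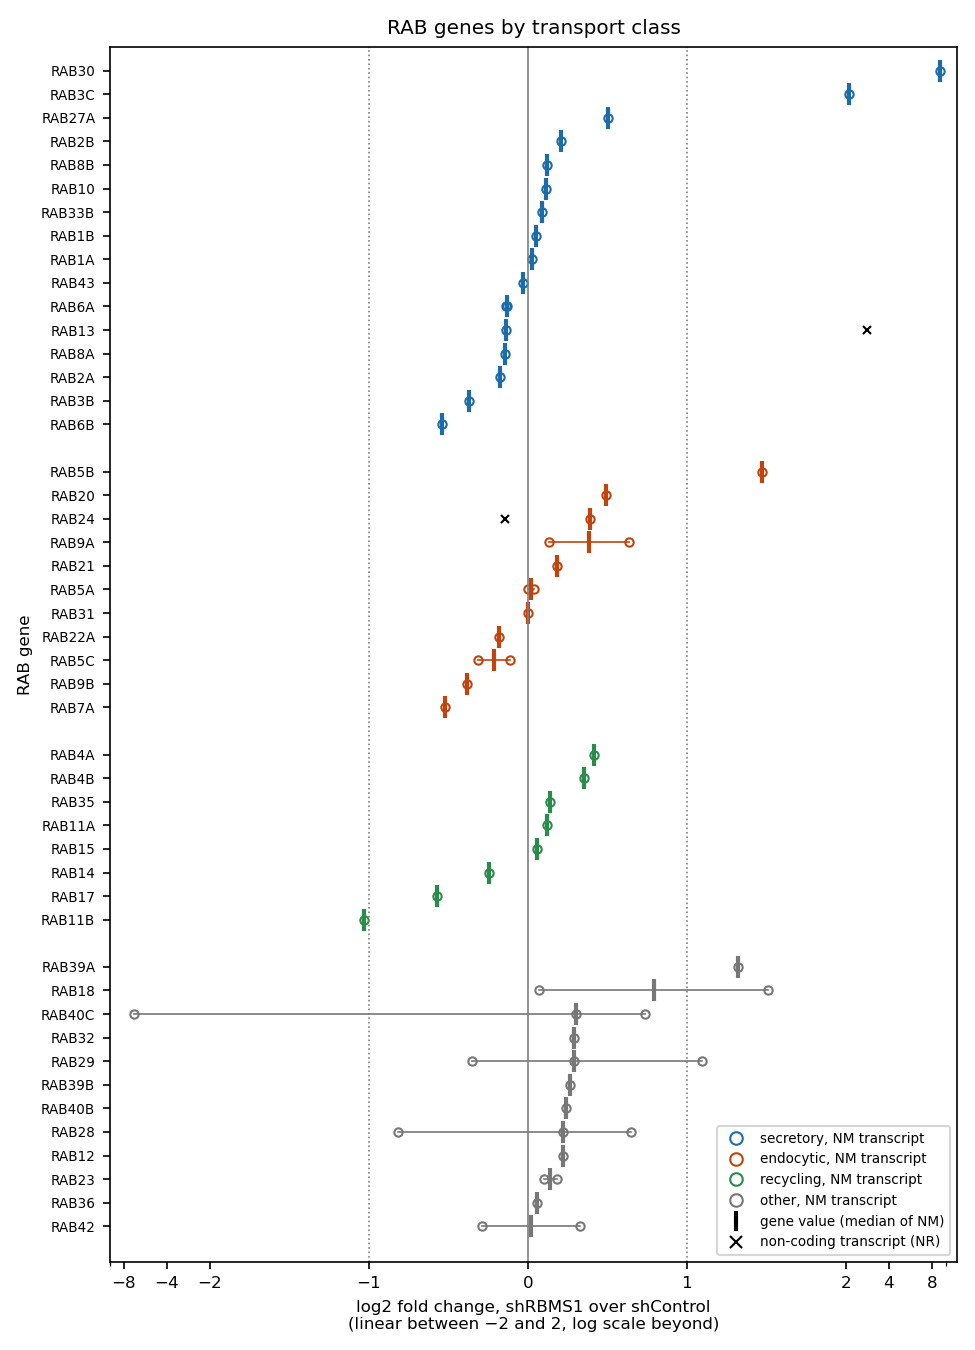
log2 fold changes (shRBMS1 over shControl, from the authors' deposited table) of the 47 RAB genes by transport class. Circles are single NM transcripts, ticks the gene value, crosses non-coding transcripts and dotted lines −1 and 1; RAB30 stands at 9.09 and RAB40C spans −6.77 to 0.74.

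The 4 members above 1 were RAB30, RAB3C, RAB5B and RAB39A, and each rests on 1 NM row. RAB30, a RAB of the Golgi on chromosome 11 at 82973133 to 83071897 (hg38), was at 9.09 in the authors' deposited table. That table holds no absolute value beyond 10 and 109 rows beyond 9, and whether the transcript was near 0 in the shControl libraries cannot be seen without levels. RAB30 has 4 NM accessions in the RefSeq gene table, and only NM_001286061 had a row. RAB3C works in regulated exocytosis and is encoded at 58582152 to 58859394 of chromosome 5. The authors' deposited table had it at 2.12, or 435% of control, with 1 of 2 accessions present. To all of its digits this value is also that of FPR3, an unrelated receptor gene. Such exact sharing of a value was seen for 1 of 60 RAB rows (1.67%) and for 1.58% of the 17868 NM rows with a gene name.

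RAB5B, 1 of the RABs of early endosome fusion, is encoded at 55973949 to 55996683 of chromosome 12. The authors' deposited table had it at 1.47, or 277% of control. Here 1 of 5 NM accessions had a row, so the value does not stand for the whole gene. RAB39A, on chromosome 11 at 107928448 to 107963482, had 1.32, or 249.9% of control, for its single NM accession in the authors' deposited table. RAB11B, a RAB of the recycling endosome on chromosome 19 at 8390360 to 8404434, was the only member below −1. The authors' deposited table had its single NM accession at −1.03, which is 49.0% of control. RAB11B was the member nearest to the threshold among those past it. The nearest short of it were RAB18 at 0.79, RAB17 at −0.57 and RAB6B at −0.54 by the authors' deposited table.

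Secretory, endocytic and recycling RABs did not stand apart by their medians. Secretory RABs had a median of 0.038 with quartiles of −0.14 and 0.14, endocytic RABs 0.021 with quartiles of −0.20 and 0.39, and recycling RABs 0.089 with quartiles of −0.32 and 0.19. The differences of these medians were 0.017 for secretory minus endocytic, −0.052 for secretory minus recycling and 0.069 for recycling minus endocytic. Each is smaller than the width between quartiles within any of the 3 classes, which was 0.28, 0.59 and 0.52. The signs of the first and the last turn, to −0.042 and −0.0032, when only genes with exactly 1 NM row are used. Above 0 were 9 of 16 secretory, 7 of 11 endocytic and 5 of 8 recycling RABs.

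**Figure D2:**
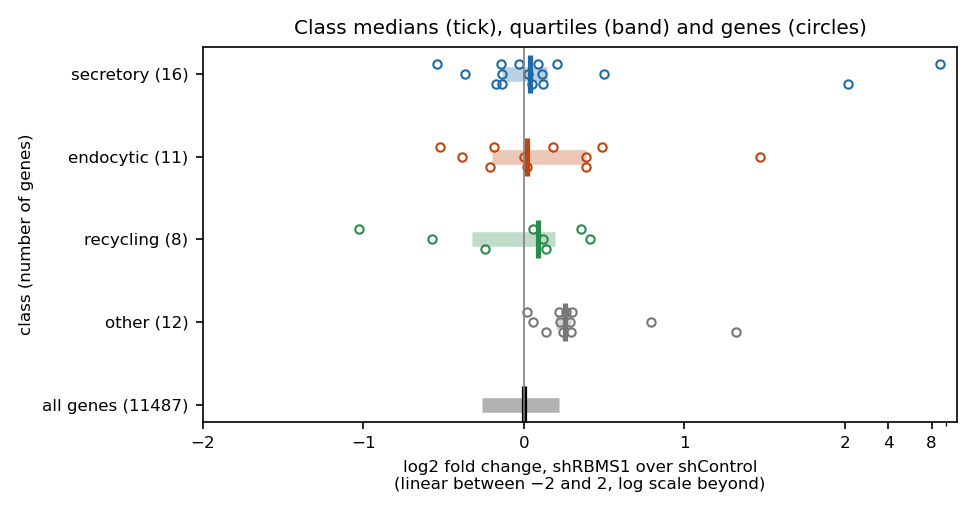
Gene values of the 4 classes of RAB genes and of all 11487 genes, as log2 fold change of shRBMS1 over shControl. Ticks are medians, bands run between the quartiles and circles are genes; the medians of secretory, endocytic and recycling RABs lie within 0.069 of each other, and that of the other RABs is 0.25.

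Among secretory RABs the 9 of the ER and Golgi had a median of 0.025. RAB1A and RAB1B, which carry cargo forward between the ER and the Golgi, had 0.025 and 0.050 in the authors' deposited table. RAB2A and RAB2B, which act between the Golgi and the ER, were at −0.18 and 0.21 there. For RAB6A, which acts within and out of the Golgi, the authors' deposited table had −0.14 and −0.13 in its 2 NM rows, and its relative RAB6B was at −0.54, or 68.8% of control. RAB33B, a Golgi RAB, was at 0.091 and RAB43, which shapes the Golgi and export from it, at −0.030 in the authors' deposited table. Apart from RAB30 and RAB6B, the genes of this step lay within 0.5 of 0.

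The 4 RABs of Golgi to plasma membrane transport lay between −0.14 and 0.12. The authors' deposited table had RAB8A at −0.14, RAB8B at 0.12, RAB10 at 0.12 and RAB13, which also serves tight junctions, at −0.13. RAB13 had a non-coding transcript in addition, NR_073553, at 2.84 in the authors' deposited table, and it does not enter the gene value. The 3 RABs of regulated exocytosis ran from −0.37 to 2.12. Next to RAB3C, the authors' deposited table had RAB3B at −0.37. RAB27A, which docks secretory granules and takes part in exosome release, was at 0.50 (142% of control) there. Only 1 of 15 NM accessions of RAB27A had a row, so its value does not stand for the whole gene.

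Of the endocytic RABs, 6 belong to the early endosome and had a median of 0.012. RAB5A was at 0.021 and RAB5C at −0.21 by the authors' deposited table, far below RAB5B. RAB21, which also moves integrins, was at 0.18, RAB22A at −0.18 and RAB31 at 0.0024 in the same authors' deposited table. On the way to the lysosome, the authors' deposited table had RAB7A, the RAB of late endosome and lysosome fusion, at −0.52 (69.6% of control). RAB9A and RAB9B, which return cargo from late endosomes to the Golgi, were at 0.39 and −0.38 there. RAB20, of phagosome and endosome maturation, and RAB24, of late endosomes and autophagosomes, had 0.49 and 0.39 in the authors' deposited table.

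Recycling RABs included the single member below −1. RAB11A and RAB11B, both of the slow route through the recycling endosome, had 0.12 and −1.03 in the authors' deposited table. The authors' deposited table had RAB17, an epithelial RAB of recycling and transcytosis, at −0.57 (67.3% of control). RAB14, which moves cargo from endosomes to the Golgi and the plasma membrane, was at −0.24 there. Of the fast recycling RABs, RAB4A was at 0.41, RAB4B at 0.36 and RAB35 at 0.14 in the authors' deposited table. RAB15, of early and recycling endosomes, was at 0.058 there.

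The 12 RABs with other roles all lay above 0, where 50.4% of all genes did, and their median was 0.25 with quartiles of 0.20 and 0.29. Their band was narrow, 0.092 wide, although 6 of the 12 rest on several transcripts that can lie far apart. With the NM row nearest to 0, or with the mean, 11 of 12 lay above 0, and of their 21 NM rows 17 did. The classes were written with earlier results of these data known, and this one holds RABs of unlike roles. Its count above 0 therefore cannot be taken as a trait of the class. The lysosome-related RAB32 was at 0.29, RAB12, which serves traffic to lysosomes, at 0.22 and RAB23, a RAB of cilia and hedgehog signalling, at 0.14 in the authors' deposited table. RAB40B and RAB40C, which join ubiquitin ligases through a SOCS box, were at 0.24 and 0.30 there. RAB39B was at 0.27, RAB36 at 0.057 and RAB42 at 0.019 in the authors' deposited table.

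Of the 10 members with several NM rows, 4 had rows more than 1 apart, where 48.4% of the 4185 genes with several NM rows did. All 4, RAB18, RAB28, RAB29 and RAB40C, are among the RABs with other roles. Of the 47 members, 23 had fewer rows than NM accessions, and all members together have 113 NM accessions in the RefSeq gene table. The same count over all genes was not made, so it is not known whether the members differ from them in this.

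RAB18 acts at lipid droplets and the ER. Its NM_001256410 was at 1.51 and its NM_021252 at 0.073 in the authors' deposited table. The coding sequences linked to these rows are the same apart from 87 bases in a single exon of the first, after coding base 186, at chr10:27531529-27531615 (GRCh38, plus strand). The exon is shown because it alone sets the higher coding sequence apart.
RAB18 exon of NM_001256410: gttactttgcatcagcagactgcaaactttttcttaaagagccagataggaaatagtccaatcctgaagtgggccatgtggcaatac

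RAB28, a RAB of cilia, had 3 rows whose coding sequences share their first 573 bases and then part, as the coding ends printed above show. NM_001159601, whose end holds no cysteine codon in the window, was at 0.65 in the authors' deposited table. NM_001017979, with a cysteine codon there, was at 0.22 and NM_004249, also with one, at −0.82 in the authors' deposited table. The row without the cysteine codon was therefore the highest and a row with it the lowest, without a replicate for either.

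RAB29, a partner of the kinase LRRK2 at the Golgi and lysosomes, also had 3 rows. NM_003929 was at 1.10 with a 3′ UTR of 2356 bases in its linked transcript, NM_001135662 at 0.29 with 905 bases, and NM_001135663 at −0.35 with 624 bases, by the authors' deposited table. The first 2 have the same coding sequence of 612 bases, and the third lacks 72 of them. This order by 3′ UTR length was not general among the members. In RAB18 and RAB5A the higher row also had the longer 3′ UTR, but in RAB9A, RAB42 and RAB6A it had the shorter, and RAB28 showed neither order. Across RAB genes Spearman's rho between the value and 3′ UTR length was −0.024. In RAB40C, NM_001172666 stood at −6.77, NM_021168 at 0.30 and NM_001172665 at 0.74 in the authors' deposited table. GENCODE links the lowest and the highest of these to 1 and the same transcript, and the transcripts linked to the 3 rows share the same 846 coding bases. With the mean of its rows RAB40C would stand at −1.91.

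The remaining pairs of rows lay closer. In the authors' deposited table RAB9A was at 0.13 and 0.64, RAB42 at −0.29 and 0.33, RAB5C at −0.31 and −0.11, RAB23 at 0.10 and 0.18, and RAB5A at −0.00052 and 0.042.

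Relatives that share a family number were set side by side in 13 pairs from 11 family numbers. The median distance was 0.41, and 5 pairs, 2 of them with RAB5B, lay more than 1 apart. Distances between unrelated genes were not taken, so no background stands beside these values. RAB3B and RAB3C were 2.49 apart, RAB5B and RAB5C 1.68, RAB5A and RAB5B 1.45, RAB11A and RAB11B 1.15, and RAB39A and RAB39B 1.06. Each of these 5 pairs includes a member beyond 1, and 4 of them hold a member that lies above 1. At the other end RAB1A and RAB1B were 0.025 apart, and RAB4A and RAB4B, like RAB40B and RAB40C, 0.058 apart. The coding sequences of the pairs were identical at 71.5% to 78.8% of aligned positions. The longest run of identical bases shared by the 2 transcripts of a pair had a median of 17 bases and reached 55 in RAB40B and RAB40C. Members also share exons with other genes: 23 of 47 overlap an exon of another GENCODE gene, 18 of them on the opposite strand and 9 on the same strand. The share of all genes with such an overlap was not counted, so these counts do not mark the family. RAB11B shares 306 bases with its antisense gene RAB11B-AS1, which was at 0.12 in the authors' deposited table. RAB2B shares 124 bases with TOX4 on the opposite strand, a gene at 4.07 by the median of its rows in the authors' deposited table. On the same strand, RAB24 shares 926 bases with MXD3, which was at 0.35, and RAB4A shares 648 with SPHAR. RAB4B shares 1010 bases with MIA-RAB4B, and RAB43 shares 3956 with ISY1-RAB43. No source used here says whether reads were counted by strand, so reads of partners on the opposite strand cannot be told apart. Counting by strand would not separate partners on the same strand.

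**Figure D3:**
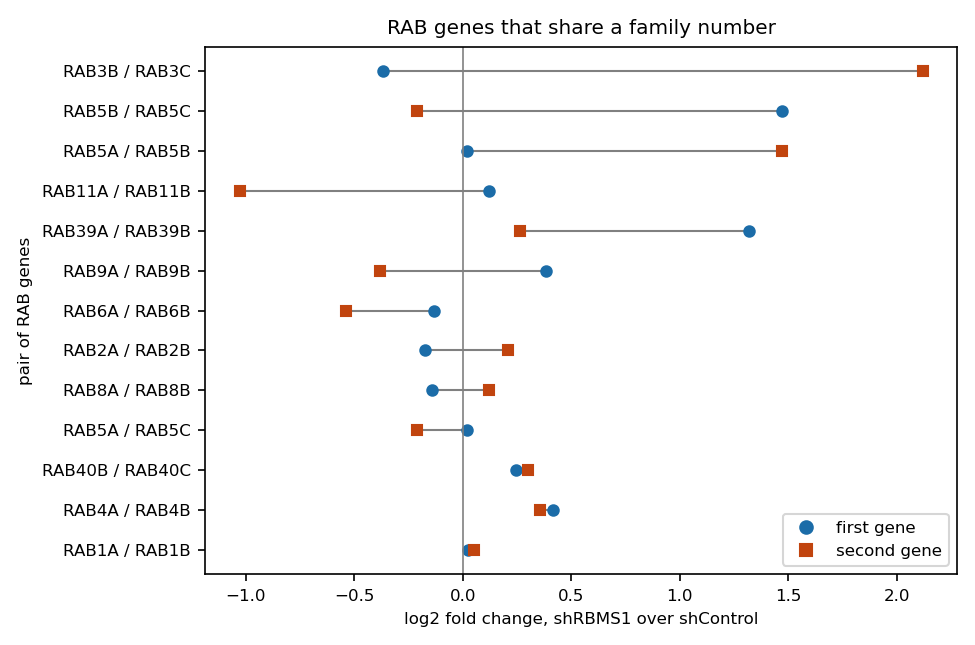
log2 fold change (shRBMS1 over shControl) of the 13 pairs of RAB genes that share a family number, ordered by distance. Circles are the first and squares the second gene of each pair; RAB3B and RAB3C are 2.49 apart and RAB1A and RAB1B 0.025.

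RBMS1 is known to bind AUAUA, and the 3′ UTRs of the members were searched for ATATA on the transcript strand, counting overlapping matches. At least 1 match was found in 38 of 46 RAB genes (82.6%) and in 6574 of 11184 genes in all (58.8%). The 3′ UTRs of RAB genes are also longer, with a median of 2266 bases against 1135. Per kilobase they held 2.11 matches against 1.80 in all genes. This rate pools the bases of all genes in a group, so long 3′ UTRs weigh most. RAB21 alone gave 63 matches in 14612 bases, and the rate without it was not computed. The motif holds only A and T, and transcripts of RAB genes had a median GC content of 43.7% against 48.9% in all genes. The part of base composition in the number of matches was not tested. RAB genes with a match had a median of 0.12 and the 8 without had 0.21, while over all genes the medians were 0.013 with a match and −0.0098 without. Across the 46 RAB genes Spearman's rho between the value and the number of matches was 0.0080, and over all genes 0.021. These are correlations across genes of the same libraries, and genes are not independent replicates. The first match with 10 bases on each side, ATATA in capitals, is shown for the 5 members beyond 1, each from the 3′ UTR of its linked GENCODE 29 transcript (GRCh38).
RAB30, chr11:82981973-82981997, minus strand: ttagcagaacATATAatggtttcac
RAB3C, chr5:58853311-58853335, plus strand: atgttaaatgATATAgctattaagc
RAB5B, chr12:55993149-55993173, plus strand: cccagccaccATATAcccctgcagt
RAB39A, chr11:107962686-107962710, plus strand: atttttgtgcATATAtagtcaattg
RAB11B, chr19:8404235-8404259, plus strand: cgtgttttgtATATAcaaccgctct

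The higher 4 and the lower 1 of these members all hold the motif, as did 38 of 46 RAB genes (82.6%). RAB30 has 27 matches in a 3′ UTR of 9032 bases, RAB3C 14 in 8043, RAB39A 3 in 1110, RAB5B 1 in 2494 and RAB11B 1 in 876. The members with the most matches were RAB21 with 63, which was at 0.18 in the authors' deposited table, and RAB3B with 36, at −0.37 there. Transcript composition ran with the values about as in all genes: rho between the value and GC content was −0.170 across RAB genes and −0.174 across all. RAB genes with at least 55% GC, 11 in number, had a median of 0.058, and the other 35 had 0.12, while all genes at those GC contents had −0.069 and 0.037. The part of composition in the values was not tested.

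**Figure D4:**
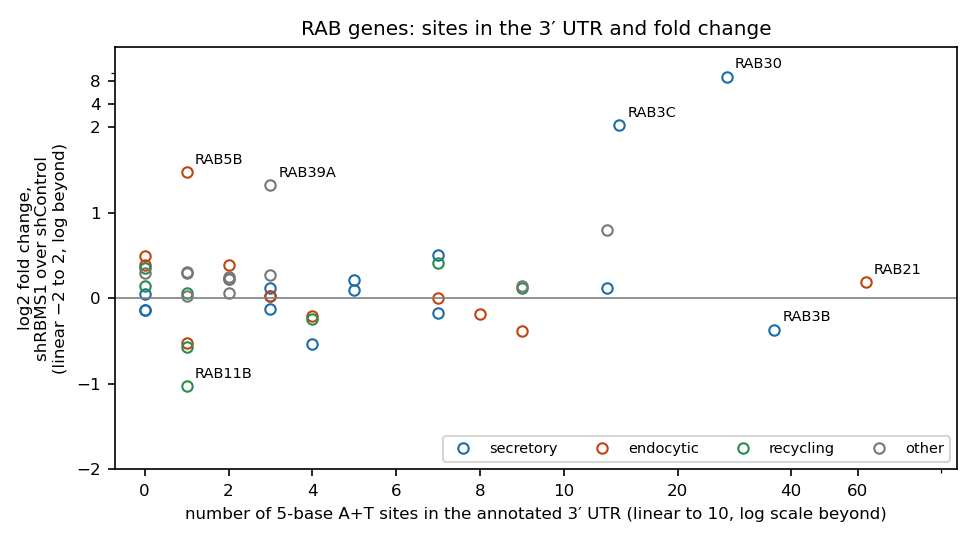
Number of ATATA matches in the annotated 3′ UTR (x axis, linear to 10 and log beyond) and log2 fold change of shRBMS1 over shControl (y axis, linear between −2 and 2 and log beyond) for 46 RAB genes, coloured by class. RAB21 with 63 and RAB3B with 36 matches lie at 0.18 and −0.37, and RAB5B and RAB11B with 1 match each lie at 1.47 and −1.03.

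The genes that load, switch and read RABs were described by lists. All 8 genes for the dissociation inhibitors, escort proteins, prenylation and related chaperones were measured, with a median of −0.037 and 0 beyond 1 in either direction. Over all genes 7.68% were beyond 1, so a list of 8 need hold none. The subunits of the transferase that attaches lipid to RABs stood on opposite sides, RABGGTA at −0.65 and RABGGTB at 0.56 in the authors' deposited table. RABIF, a chaperone of nucleotide-free RABs, was at −0.33, and the dissociation inhibitor GDI2 at 0.37 in the authors' deposited table.

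Exchange factors had a median of −0.0024 over 52 of 54 listed genes, 1 higher and 1 lower by at least 1, next to 3.62% and 4.06% of all genes. RIN3 and RIN2, exchange factors of RAB5, had −1.65 and −0.87 in the authors' deposited table. At the other end were DENND2D at 1.42, from rows at 0.08 and 2.76, and the TRAPP subunit TRAPPC5 at 0.97, from −0.17 and 2.11, in the authors' deposited table.

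GTPase activators had a median of −0.12 over 33 of 35 listed genes, and 9 of the 33 (27.3%) lay above 0, next to 50.4% of all genes. At least 1 higher were 4 of them and 1 was lower, where the background was 3.62% and 4.06%. By the authors' deposited table TBC1D10C was at 2.63, TBC1D19 at 1.94, USP6NL, an activator for RAB5, at 1.76 and TBC1D9B at 1.02. EVI5 was lowest at −3.18, followed by TBC1D8B at −0.76, in the authors' deposited table. Apart from TBC1D10C, the activators beyond 1 rest on rows on both sides of 0. Those rows were −1.70 and 5.57 for TBC1D19, −0.11 and 3.63 for USP6NL, −0.25 and 2.29 for TBC1D9B, and −6.61 and 0.25 for EVI5 in the authors' deposited table.

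Effectors had a median of −0.15 over 49 of 54 genes, with 5 of them at or below −1 and 1 at or above 1, where 4.06% and 3.62% of all genes were. With the NM row nearest to 0 the median of effectors was −0.077 and that of GTPase activators −0.11, so the order of these lists depends on the row taken. Lower were the synaptotagmin-like genes SYTL1 at −3.95 and SYTL2 at −1.77 and MLPH, melanophilin, at −1.29 in the authors' deposited table, all partners of RAB27. PLEKHM1, which binds RAB7, was at −1.24 and BICD1, a dynein adaptor for RAB6, at −1.07 in the authors' deposited table. Another partner of RAB27, SYTL4, was at 3.33 and RIMS2, a RAB3 effector of exocytosis, at 0.74 by the same authors' deposited table. Rows of SYTL1 stood at −8.90 and 1.00, those of SYTL2 ran from −8.69 to 7.07, those of MLPH stood at −4.20 and 1.61, and those of BICD1 at −2.03 and −0.11 in the authors' deposited table. With the NM row nearest to 0, SYTL1 would stand at 1.00, MLPH at 1.61 and BICD1 at −0.11, while SYTL2 and PLEKHM1 would stay below −1. ANKFY1, at −0.28 by the median, would then stand at 1.47. The lean of the effector counts to lower values therefore depends on the row taken. RAB27A itself was at 0.50, from 1 of 15 NM accessions.

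The tethers that RABs recruit had medians near 0, with single genes far from it. The exocyst, which tethers secretory vesicles, had a median of 0.023 over 9 genes. The authors' deposited table had EXOC1 at −1.12, from rows between −1.61 and 0.42, and EXOC2 at −0.50, with EXOC4 at 0.28 and EXOC6 at 0.11 at the other end. HOPS and CORVET, the tethers of late and early endosomes, had a median of −0.033 over 8 genes, or 0.072 with the NM row nearest to 0. TGFBRAP1 was at −4.07, from rows at −9.57 and 1.44, and VPS11 at −0.93 in the authors' deposited table, with VPS41 at 0.20 and VPS8 at 0.055 at the other end.

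**Figure D5:**
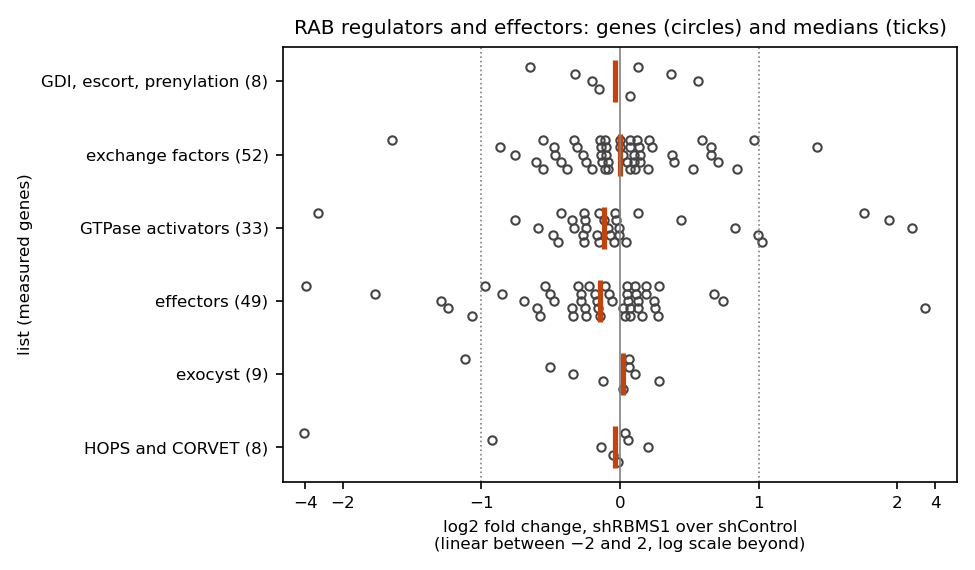
log2 fold change (shRBMS1 over shControl) of genes that regulate or read RABs. Circles are genes, ticks medians and dotted lines −1 and 1; the medians run from −0.15 for effectors to 0.023 for the exocyst.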

How the data were processed

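Total RNA of SW480 cells was sequenced in 3 libraries, 1 shRBMS1 and 2 shControl, grouped by the shRNA in the labels. The authors deposited 1 log2 fold change for each RefSeq transcript. STAR 2.5, Cufflinks, Cuffdiff and hg38 are named in the submitters' processing notes without roles, and no source used here states a filter on low levels. The header gives neither base nor direction. Base 2 was read from the spacing of values: of rows lying a fixed distance from 1 of 14 values that occur at least 3 times (tolerance 2e-06), 15 lay 1 away and 0 lay ln 2 or log10 of 2 away. The direction was set so that RBMS1 is lower, and every sign would turn if it were the other way.

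Of 20104 rows, 19818 matched a symbol in the RefSeq gene table (GRCh38.p14, the assembly of hg38), and 286 were left out. GENCODE 29, joined by its own RefSeq links, gave sequences and lengths, and a gene took the linked transcript with the longest 3′ UTR. Members, classes and lists were chosen with earlier results of these data known. Named were all members and, of each list, the 2 highest, the 2 lowest and any gene beyond 1. The computation of the value per gene and of the class medians was checked by recovering known shifts put into the rows of RAB genes. This checks the computation only, not whether a median suits a gene whose rows lie far apart. Python 3.11.15, numpy 2.4.6, pandas 2.3.3, scipy 1.17.1, biopython 1.88 and matplotlib 3.10.9 were used.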

Additional observations from a re-analysis of the deposited data

How the results depend on the processing

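Under alternatives 119 values were recomputed. The alternatives were other ways to take 1 value per gene, other thresholds, centring, other gene sets, and RAB8A, RAB8B, RAB10 and RAB13 as recycling. Of the 119, 104 moved by less than 0.1 on the log2 scale, or by at most 1.5 times for counts, and kept their sign. Some of them could not move: each recycling RAB has 1 NM row, and centring leaves differences between classes as they are. The limit of 0.1 is also wider than the differences between class medians, so this count does not show that those differences hold. The count of RAB genes lower by at least 1 was 1, but 2 with the mean of NM rows and 2 with each row on its own, the second being a row of RAB40C. With a threshold of 0.5 it was 4, and with a threshold of 2 it was 0, while the count of higher genes was then 2. With genes of exactly 1 NM row, secretory minus endocytic was −0.042, recycling minus endocytic −0.0032, and 6 of 6 RABs with other roles lay above 0, fewer because fewer genes enter. With the NM row nearest to 0, the HOPS and CORVET median was 0.072, RAB42 was at −0.29 and RAB5A at −0.00052. With the mean of its rows RAB40C was at −1.91 and RAB28 at 0.019, and with the row nearest to 0 RAB18 was at 0.073 and RAB9A at 0.13. Depth and levels per library are unknown, so no error stands beside any value. No paired analysis was possible because the deposited values are 1 fold change per transcript over all libraries, and for the same reason no library could be left out.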
